A study of Capsicum annuum and Capsicum annuum
Solanum lycopersicum with 48 samples.

Results

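The WRKY transcription factor genes of tomato were followed through graft junctions made between tomato (Solanum lycopersicum var. M82) and pepper (Capsicum annuum var. Big Dipper). The family was taken as a list of 42 gene identifiers, matched without their version suffix by a rule that uses no expression value. Of these, 41 had a row among the 33604 tomato genes of the tables, and Solyc04g072070 was not analysed here. The 3 grafts with tomato tissue were compared at 1, 3 and 5 days after grafting (DAG). They were pepper:tomato (pepper scion on tomato stock), tomato:pepper (tomato scion on pepper stock) and the tomato:tomato self-graft, each with 4 libraries per day, out of 48 libraries in 12 groups. All plants were wild-type seedlings joined by a wedge graft, and each library came from 1 junction of 1 plant, cut as 1 cm of scion and 1 cm of stock. Tomato RNA therefore came from the stock in pepper:tomato, from the scion in tomato:pepper and from both sides in the self-graft. The study reports a small percentage of reads that mapped to the wrong species, before it aligned heterografts to both genomes joined. Whether pepper reads entered the tomato WRKY values was not tested. All plants were kept in the dark until after the 3 DAG harvest and were back in light by 5 DAG, so that light and day cannot be told apart in any comparison with 5 DAG.

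WRKY proteins are plant transcription factors that bind a short promoter element called the W-box, present in many genes of defence and wounding. Some act as activators and others as repressors, and many WRKY genes are themselves targets of WRKY proteins. In stems they are best known for fast induction after wounding or pathogen attack, downstream of MAP kinase cascades and of salicylate and jasmonate. A graft is a wound that also has to rebuild vascular tissue across the cut.

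Expression was deposited as FPKM, fragments per kilobase of transcript and per 1000000 fragments, with 1 value per group. No spread between plants can be given for any gene, so no test was possible and every difference below compares 1 value with 1 value. The heterograft values were normalized over the genes of both species, and the tomato part of the FPKM sum was 17.9%, 51.7% and 23.1% at 1, 3 and 5 DAG in pepper:tomato, and 59.5%, 29.7% and 49.2% in tomato:pepper. The 3 DAG values of the heterografts thus lay on the side of the other heterograft at 1 and 5 DAG. An exchange of labels between these groups at 3 DAG was not tested, and the counts, medians and correlations of the WRKY genes that rest on them are given both as labelled and with the 3 DAG values exchanged. Of the 37 calls on WRKY genes between days that use these values, 35 passed the filter after the exchange and 13 of these changed sign. Markers of vascular stem tissue were fixed as 8 tomato genes (the cambium genes PXY and WOX4 and the xylem genes VND6, VND7 and NST1). Their summed FPKM was 24.2, 5.35 and 41.3 in pepper:tomato, 15.4, 36 and 30.3 FPKM in tomato:pepper, and 24.7, 31.8 and 38.1 in tomato:tomato. With 3 DAG exchanged, these sums would run 24.2, 36 and 41.3 in pepper:tomato and 15.4, 5.35 and 30.3 in tomato:pepper. At least 1 FPKM was reached by 3, 1 and 6 of the 8 in pepper:tomato, by 3, 5 and 4 in tomato:pepper and by 3, 4 and 4 in tomato:tomato. In junctions of mixed tissue, fewer cells of a type and less RNA per cell cannot be told apart.

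Changes are given as the log2 ratio of FPKM + 1 between 2 groups, minus the median of that ratio over all tomato genes that reached 1 FPKM in any group of the graft. This median (the tomato shift) is given once per comparison. The added 1 understates the change of low genes. It also gives a gene listed at 0 in both groups the negative of the shift, so that low genes drift away from 0 where the shift is large. A gene is called higher or lower where it stood 2-fold or more (1 or more, or -1 or less, on this log2 scale) from the tomato median. The filter was passed by 38 WRKY genes in pepper:tomato, 35 in tomato:pepper, 37 in tomato:tomato and 38 across both heterografts. Of the 94 calls made on WRKY genes in the 12 comparisons, 93 kept their sign without subtraction of the shift and with values rescaled to the tomato total, the exception being Solyc02g071130 at 3 over 1 DAG in pepper:tomato.

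The 5 highest genes of each group together carried between 44.6% (tomato:pepper at 5 DAG) and 55.3% (tomato:pepper at 1 DAG) of the family's summed FPKM. Solyc08g006320 was the highest WRKY gene in 8 of the 9 groups. By day (1, 3 and 5 DAG), it stood at 23.2, 202 and 46.3 FPKM in pepper:tomato, at 144, 90.3 and 78.7 FPKM in tomato:pepper, and at 120, 221 and 129 FPKM in tomato:tomato. At its highest it made up 28% of the family's FPKM, in the self-graft at 3 DAG. The exception was pepper:tomato at 1 DAG, where Solyc01g079260 led with 33.0 FPKM. Solyc01g079260 stood at 33.0, 23.0 and 23.6 FPKM in pepper:tomato, 26.5, 17.7 and 20.3 FPKM in tomato:pepper, and 42.4, 29.1 and 28.1 FPKM in tomato:tomato. Solyc02g071130 was among the 5 highest genes by mean FPKM in all 3 grafts, at 12.4, 45.6 and 27.7 FPKM in pepper:tomato, 42.3, 34.3 and 30.3 FPKM in tomato:pepper, and 44.4, 60.9 and 53.1 FPKM in tomato:tomato. Solyc07g066220 was among the 5 highest in tomato:pepper (26.3, 29.1 and 31.6 FPKM) and in tomato:tomato (30.2, 45.7 and 50.9 FPKM), and had 9.01, 30.1 and 18.9 FPKM in pepper:tomato. Solyc05g015850 completed the abundant genes, at 8.90, 50.0 and 9.19 FPKM in pepper:tomato, 63.7, 10.5 and 19.2 FPKM in tomato:pepper, and 59.7, 34.0 and 24.6 FPKM in tomato:tomato. It was highest at 1 DAG in the self-graft and in tomato:pepper and at 3 DAG in pepper:tomato, as labelled the same days as the WRKY33 gene Solyc06g066370. In the exchanged values of pepper:tomato, Solyc05g015850 was highest in FPKM at 3 DAG (10.5 FPKM) and Solyc06g066370 had 10.7 FPKM at both 1 and 3 DAG. Relative to the tomato median, Solyc05g015850 was then at -0.26 at 3 over 1 DAG. In tomato:pepper Solyc05g015850 was highest at 1 DAG (63.7 FPKM, against 50.0 at 3 DAG) and Solyc06g066370 at 3 DAG (50.3 FPKM, against 40.9 at 1 DAG).

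The summed level of the family was 228, 723 and 288 FPKM in pepper:tomato, 587, 354 and 409 FPKM in tomato:pepper, and 753, 791 and 640 FPKM in tomato:tomato. Per 1000000 of tomato FPKM this was 1052, 815 and 1016 in pepper:tomato, 700, 687 and 737 FPKM in tomato:pepper, and 869, 562 and 692 in tomato:tomato. In the deposited values the sum followed the tomato share of each heterograft, and per 1000000 of tomato FPKM the 3 DAG value was the lowest of the 3 days in each graft. Under the exchange, these scaled values at that day are 687 in pepper:tomato, which is still its lowest, and 815 in tomato:pepper, which is then its highest. The heat map of levels shows Solyc08g006320 as the brightest row and the lowest rows near 0 in every group.

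**Figure D1:**
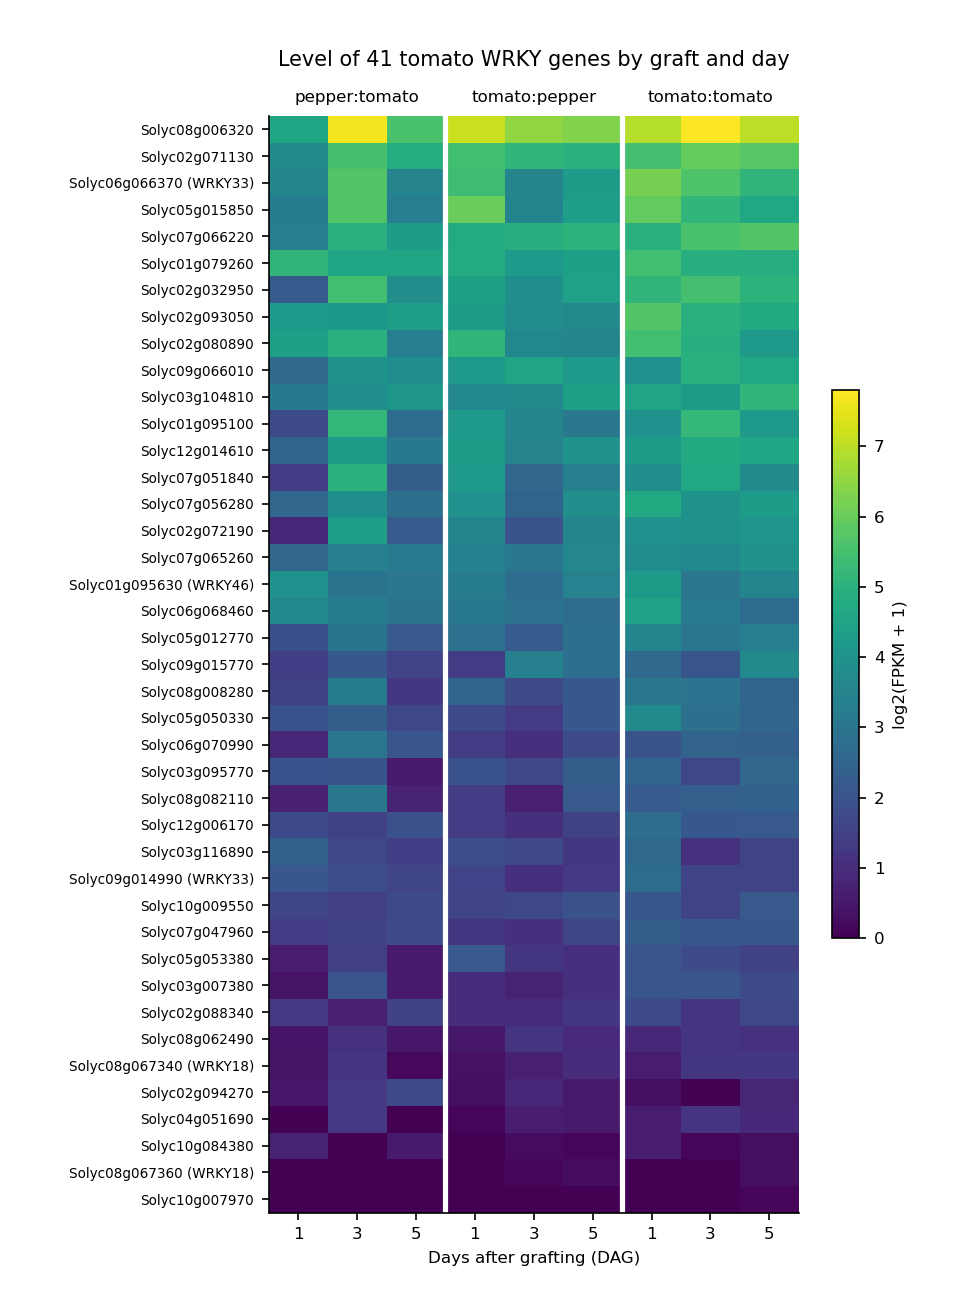
Level of the 41 WRKY genes as log2(FPKM + 1) by colour, with genes ordered by their mean over the 9 groups and columns for 1, 3 and 5 DAG in pepper:tomato, tomato:pepper and tomato:tomato. Each cell is 1 deposited value for 4 libraries, heterograft and self-graft columns were normalized separately, and the top row, Solyc08g006320, reaches 221 FPKM.

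In the family, 5 members bear a name in the study, by their closest Arabidopsis relatives: WRKY33, WRKY18 and WRKY46. In Arabidopsis, WRKY33 is required for resistance to necrotrophic fungi and activates camalexin synthesis, WRKY18 modulates basal defence together with close paralogs, and WRKY46 acts in salicylate-linked defence. Of the WRKY33 genes, Solyc06g066370 was the more abundant in every group. It stood at 10.7, 50.3 and 10.2 FPKM in pepper:tomato, 40.9, 10.7 and 18.8 FPKM in tomato:pepper, and 71.9, 49.6 and 33.5 FPKM in tomato:tomato. It was highest at 1 DAG in the self-graft and in tomato:pepper, and at 3 DAG in pepper:tomato, as labelled. The second WRKY33 gene, Solyc09g014990, had 3.35, 2.55 and 2.08 FPKM in pepper:tomato, 1.99, 1.09 and 1.45 FPKM in tomato:pepper, and 5.70, 2.02 and 2.00 FPKM in tomato:tomato, and was highest at 1 DAG in each. Under the exchange it would be highest at 3 DAG in tomato:pepper. These days are ranked by FPKM. Relative to the tomato median, Solyc09g014990 in tomato:pepper as labelled was at 0.04 at 3 over 1 DAG and -0.03 at 5 over 1 DAG, so that the days barely differed.

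WRKY46 (Solyc01g095630) resembled this second WRKY33 gene in the day of its highest value in 2 of the 3 grafts. Its FPKM was 14.3, 7.03 and 7.43 in pepper:tomato, 8.61, 5.92 and 10.04 FPKM in tomato:pepper, and 18, 7.60 and 10.4 in tomato:tomato. In FPKM, 3 DAG was the lowest of the 3 days in all grafts, and this holds in both heterografts when the 3 DAG values are exchanged. Relative to the tomato median, WRKY46 in tomato:pepper was at 0.08 at 3 over 1 DAG and 0.47 at 5 over 1 DAG. Its lowest day there as labelled was then 1 DAG, while with the exchange it was at -0.13 at 3 over 1 DAG. The WRKY18 genes were barely detected. Solyc08g067340 lay between 0.119 and 1.38 FPKM over the 9 groups, and Solyc08g067360 was at or below 0.241 FPKM in each and failed the filter in all grafts.

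Between 1 and 3 DAG in the tomato:tomato self-graft, WRKY genes that moved by 2-fold were mostly lower at 3 DAG. The tomato shift was 0.06, and the median over the 37 WRKY genes was -0.35. At 3 DAG 4 genes were 2-fold or more lower, 10.8% of the family against 5.74% of all tomato genes, and 1 was 2-fold or more higher, 2.70% against 10.7%. The lower genes were Solyc03g116890 (1.16 FPKM at 3 DAG and 5.22 at 1 DAG, log2 change -1.59), Solyc06g068460 (8.34 and 21.7 FPKM, -1.34), the WRKY33 gene Solyc09g014990 (-1.21) and WRKY46 (-1.20). The higher gene was Solyc01g095100, at 35.4 FPKM at 3 DAG and 14.5 FPKM at 1 DAG (1.17). Solyc08g006320 and Solyc07g051840 were also above the median without reaching 2-fold (0.82 and 0.70). Without subtracting the shift (the deposited scale), 2 genes were higher and 4 lower, against 12.2% and 4.84% of all tomato genes. Rescaled to the tomato total, none was higher and 15 were lower (3.13% and 22.3% of all tomato genes).

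From 3 to 5 DAG the self-graft family was quiet. The tomato shift was -0.05 and the median -0.03, with 1 gene 2-fold or more higher (2.70%, against 3.64% of all tomato genes) and none lower (against 7.02%). The gene was Solyc09g015770, whose level was 5.32, 3.21 and 12 FPKM on the 3 days in order (1.68 at 5 over 3 DAG). Its FPKM was 1.71, 3.44 and 2.06 in pepper:tomato and 1.57, 9.41 and 6.14 in tomato:pepper. In FPKM, 3 DAG was the highest day of both heterografts as labelled, and 5 DAG that of the self-graft. Relative to the tomato median, Solyc09g015770 in pepper:tomato was at -0.05 at 3 over 1 DAG and 0.08 at 5 over 1 DAG, so that 3 DAG was not its highest day there. Its highest day in tomato:pepper became 5 DAG under the exchange, as in the self-graft.

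Between 1 and 5 DAG, the self-graft showed more lower WRKY genes than the background. At 5 DAG 7 of 37 were 2-fold or more lower, 18.9% against 5.78% of all tomato genes, and 1, Solyc09g015770, was higher (1.05), 2.70% against 6.72%. The median was -0.05 with a tomato shift of -0.01. The 7 lower genes were Solyc06g068460 (5.62 FPKM at 5 DAG and 21.7 at 1 DAG, log2 change -1.77), Solyc05g015850 (24.6 and 59.7 FPKM, -1.24), Solyc02g080890 (17.3 and 42.1 FPKM, -1.23), the WRKY33 genes Solyc09g014990 (-1.16) and Solyc06g066370 (-1.08), Solyc05g050330 (4.79 and 11.9 FPKM, -1.15) and Solyc03g116890 (-1.03). Solyc02g093050 lay just short of this at -0.99 (25.4 and 51.6 FPKM). With 5 FPKM added in place of 1, 3 genes were lower and none higher (2.83% and 3.11% of all tomato genes). Rescaled to the tomato total, 8 were lower and none higher (7.07% and 6.08% of all tomato genes).

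Days were also ranked by the change from 1 DAG minus the tomato median of that change, with 1 DAG itself as no change. On this scale, 18 of the 37 self-graft genes had their highest value at 1 DAG, 10 at 3 DAG and 9 at 5 DAG. This is 48.6%, 27.0% and 24.3%, against 35.7%, 36.9% and 27.5% of all tomato genes. In pepper:tomato the counts were 9, 18 and 11 of 38 (23.7%, 47.4% and 28.9%, against 30.7%, 43.4% and 25.9% of all tomato genes). In tomato:pepper they were 9, 12 and 14 of 35 (25.7%, 34.3% and 40.0%, against 37.7%, 33.3% and 29%). With 3 DAG exchanged, the counts became 11, 7 and 16 of 34 in pepper:tomato (32.4%, 20.6% and 47.1%, against 36.6%, 38.3% and 25% of all tomato genes). In tomato:pepper they became 4, 21 and 13 of 38 (10.5%, 55.3% and 34.2%, against 26.7%, 34.4% and 39%).

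In pepper:tomato, where tomato is the stock, the widest spread of WRKY changes lay between 1 and 3 DAG, over a tomato shift of 0.77. At 3 DAG 11 of 38 genes were 2-fold or more higher than at 1 DAG, 28.9% against 22.3% of all tomato genes, and 6 were lower, 15.8% against 19.8%. These shares lie close to those of all genes, and the family's median was 0.08. The genes furthest above the median were Solyc07g051840 (30.4 FPKM at 3 DAG and 1.59 at 1 DAG, log2 change 2.83), Solyc02g072190 (19.0 and 0.845 FPKM, 2.67) and Solyc01g095100 (34.7 and 2.37 FPKM, 2.64). Solyc02g032950 (42.5 and 3.66 FPKM, 2.45) and Solyc08g006320 (2.30) followed. Solyc08g082110 (7.72 and 0.657 FPKM, 1.63), Solyc05g015850 (50.0 and 8.90 FPKM, 1.60), Solyc06g070990 (7.38 and 0.823 FPKM, 1.43), the WRKY33 gene Solyc06g066370 (1.36), Solyc08g008280 (8.83 and 1.82 FPKM, 1.03) and Solyc02g071130 (1.03) completed the 11. Solyc02g071130 was the exception to its direction, at -0.15 when values were rescaled to the tomato total.

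The 6 lower genes of this comparison were WRKY46 (-1.70), Solyc03g116890 (2.13 FPKM at 3 DAG and 4.32 at 1 DAG, -1.53), Solyc02g088340 (0.614 and 1.53 FPKM, -1.42), Solyc01g079260 (-1.27), Solyc06g068460 (8.65 and 11.4 FPKM, -1.14) and the WRKY33 gene Solyc09g014990 (-1.06). The 4 genes called lower in the self-graft at the same days were all among these 6, and all among the 8 lower genes obtained with the 3 DAG values exchanged. Overlap of calls was not computed over all tomato genes, of which 73.8% lay on the same side of the median in both grafts as labelled. Without subtracting the shift, 18 genes were higher and none lower (42.8% and 7.39% of all tomato genes), and rescaled to the tomato total 7 were higher and 15 lower (9.63% and 45.7% of all). The median then moved to 0.84 and to -0.42, so that a direction of the family as a whole depended on the scaling. With that exchange, 6 of 34 genes were higher and 8 lower (against 14.4% and 12% of all tomato genes), and the WRKY33 gene Solyc06g066370 changed sign to -0.47. So did Solyc05g015850 (-0.26), Solyc08g008280 and Solyc06g070990.

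**Figure D2:**
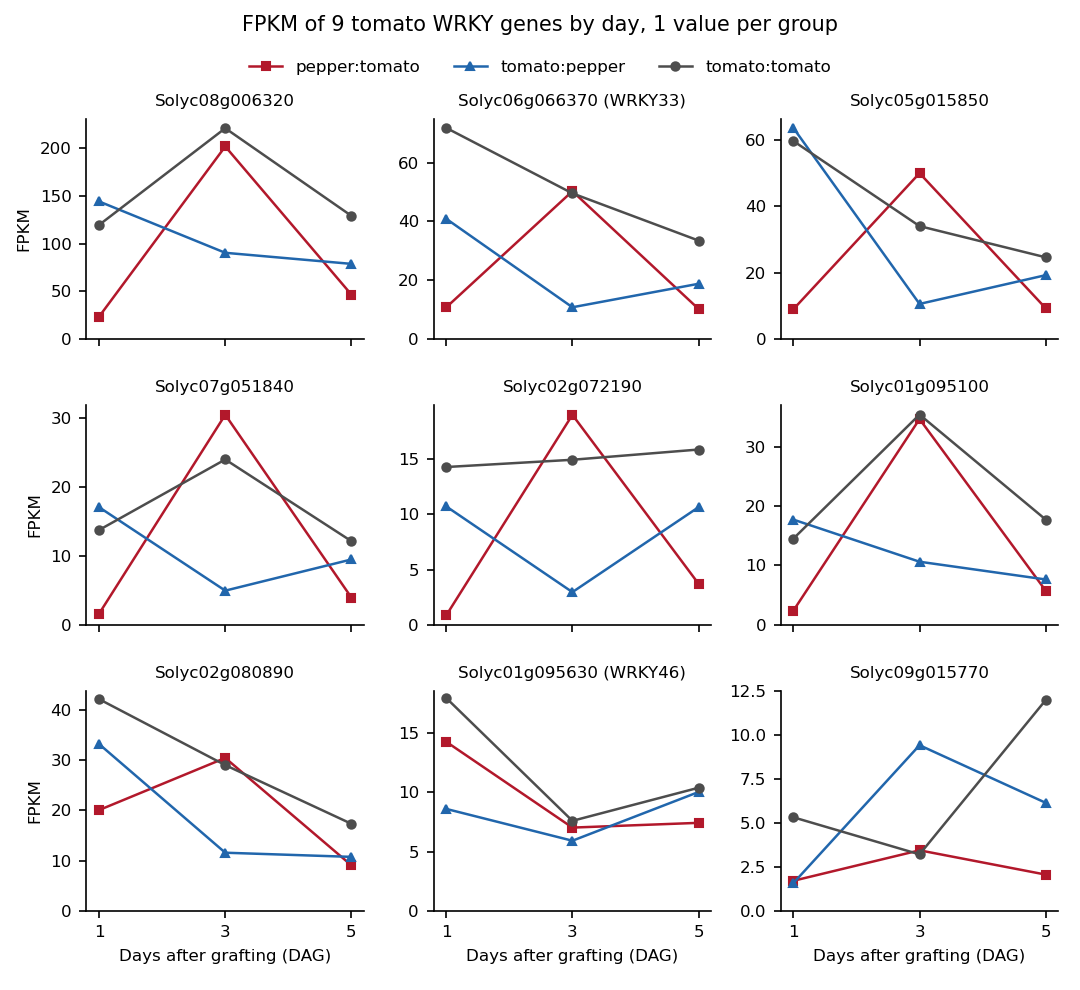
FPKM of 9 WRKY genes at 1, 3 and 5 DAG in pepper:tomato (squares), tomato:pepper (triangles) and tomato:tomato (circles), as labelled, with 1 deposited value per point, no error bars and an axis per gene that starts at 0. Heterografts and self-graft were normalized separately, and in Solyc06g066370 the pepper:tomato line peaks at 3 DAG (50.3 FPKM) where the tomato:pepper line has its lowest value (10.7 FPKM).

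Between 3 and 5 DAG in pepper:tomato the tomato shift was -0.68 and the median -0.09. At 5 DAG 8 genes were 2-fold or more lower, 21.1% against 19.1% of all tomato genes, and 3 were higher, 7.89% against 19.6%. This comparison shares its 3 DAG values with that of 3 over 1 DAG. The lowest were Solyc07g051840 (3.92 FPKM at 5 DAG and 30.4 at 3 DAG, -1.99), Solyc01g095100 (5.73 and 34.7 FPKM, -1.72) and Solyc08g082110 (0.693 and 7.72 FPKM, -1.68). The 3 higher genes, Solyc02g088340 (1.53), Solyc02g094270 (1.11) and Solyc12g006170 (1.07), were all below 3 FPKM. As deposited none was higher and 17 were lower (9.67% and 39.1% of all tomato genes), and rescaled to the tomato total 14 were higher and 3 lower (38.8% and 9.10% of all). Exchanged, 4 of 34 were higher and 1 lower (7.07% and 5.61% of all), so no direction of the family held across these settings.

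The change between 1 and 5 DAG does not use the 3 DAG values, except in the filter and, through it, in the tomato median. In pepper:tomato the tomato shift was 0.09 and the median 0.09, with 6 genes 2-fold or more higher at 5 DAG (15.8%, against 9.29% of all tomato genes) and 3 lower (7.89%, against 5.17%). The higher genes at 5 FPKM or more were Solyc02g032950 (13.4 FPKM at 5 DAG and 3.66 at 1 DAG, 1.54), Solyc09g066010 (12.8 and 5.40 FPKM, 1.01) and Solyc02g071130 (1.01), and the lower ones were Solyc02g080890 (9.02 and 20.0 FPKM, -1.16), Solyc03g095770 (0.481 and 2.94 FPKM, -1.51) and Solyc03g116890 (1.74 and 4.32 FPKM, -1.05). Solyc02g072190 (1.26), Solyc02g094270 (1.13) and Solyc06g070990 (1.10) were the other higher genes, all below 4 FPKM at 5 DAG. With 5 FPKM added in place of 1, 1 gene was higher and none lower (4.35% and 1.6% of all tomato genes). Rescaled to the tomato total, 4 were higher and 5 lower (9.53% and 11.9% of all). With 3 DAG exchanged, 4 were higher and 3 lower, and Solyc02g071130 and Solyc09g066010 were no longer called. The share of all tomato genes under this exchange was not computed.

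In tomato:pepper, where tomato is the scion, several genes that were abundant at 1 DAG stood below the tomato median at 3 DAG as labelled. Over a tomato shift of -0.56, 4 of 35 genes were 2-fold or more lower (11.4%, against 6.95% of all tomato genes) and 2 higher (5.71%, against 11.6%), with a median of 0.11. The lower genes were Solyc05g015850 (10.5 FPKM at 3 DAG and 63.7 at 1 DAG, -1.93), the WRKY33 gene Solyc06g066370 (10.7 and 40.9 FPKM, -1.28), Solyc07g051840 (4.94 and 17.0 FPKM, -1.04) and Solyc02g072190 (2.96 and 10.7 FPKM, -1.01). These 4 genes were among the 11 higher ones of pepper:tomato between the same days. Such an overlap was not computed over all tomato genes, of which 34.3% lay on the same side of the median in both heterografts. The higher genes were Solyc09g015770 (9.41 and 1.57 FPKM, 2.58) and Solyc08g062490 (1.27 and 0.404 FPKM, 1.25). On the deposited scale 1 gene was higher and 6 were lower (6.12% and 19.4% of all tomato genes), and rescaled to the tomato total 3 were higher and 4 lower (12.3% and 7.64% of all). With 3 DAG exchanged, 7 of 38 genes were higher and none lower (against 4.16% and 5.68% of all tomato genes), and Solyc06g066370, Solyc07g051840 and Solyc02g072190 changed sign to 0.42, 0.93 and 0.90.

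Between 3 and 5 DAG in tomato:pepper, over a tomato shift of 0.26, the median was 0.11. At 5 DAG 3 genes were 2-fold or more higher, 8.57% against 3.41% of all tomato genes, and none was lower, against 5.39%. They were Solyc02g072190 (10.7 FPKM at 5 DAG and 2.96 at 3 DAG, 1.30), Solyc08g082110 (3.53 and 0.619 FPKM, 1.23) and Solyc07g056280 (13.5 and 4.65 FPKM, 1.10). Under the exchange, none was higher and 8 of 38 were lower (against 11% and 10.1% of all tomato genes). Between 1 and 5 DAG the tomato shift was -0.27 and the median 0.25. At 5 DAG 3 genes were higher, 8.57% against 7.64% of all tomato genes: Solyc09g015770 (6.14 FPKM at 5 DAG and 1.57 at 1 DAG, 1.74), Solyc03g104810 (20.4 and 11.5 FPKM, 1.04) and Solyc08g082110 (3.53 and 1.69 FPKM, 1.02). The count of lower genes was 2, 5.71% against 7.18%: Solyc05g015850 (19.2 and 63.7 FPKM, -1.41) and Solyc02g080890 (10.7 and 33.2 FPKM, -1.28). Without subtracting the shift 1 gene was higher and 5 were lower (5.00% and 11.6% of all tomato genes), and rescaled to the tomato total 3 were higher and 1 lower (12.1% and 5.49% of all).

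**Figure D3:**
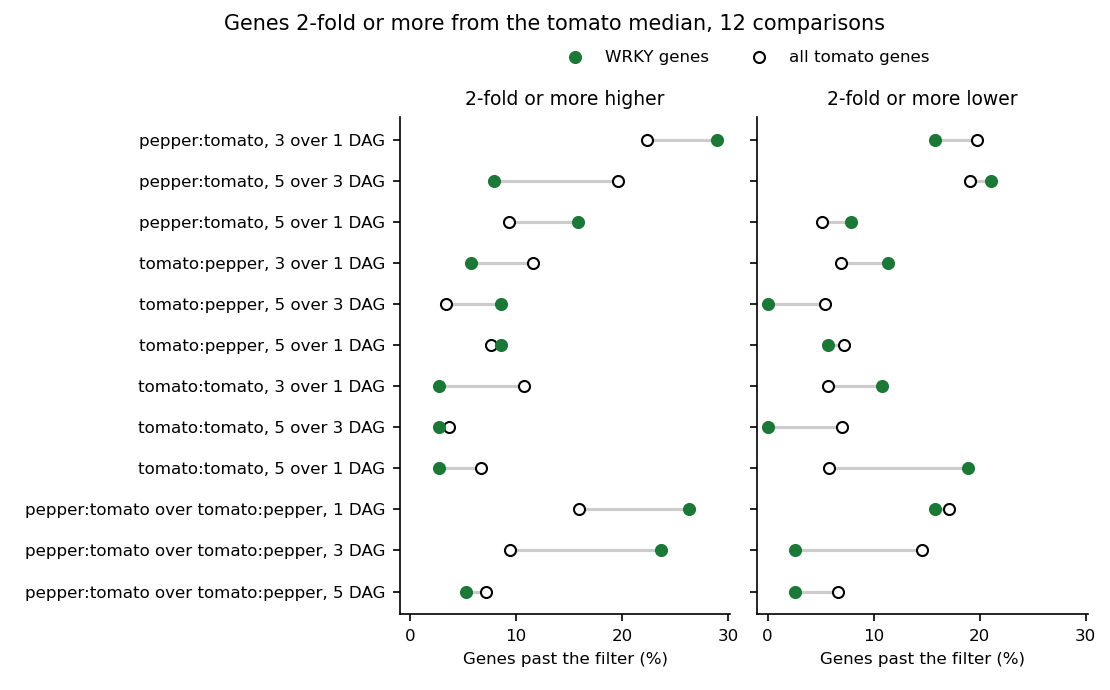
Share of WRKY genes (filled) and of all tomato genes (open) that were 2-fold or more higher or lower than the tomato median in each of the 12 comparisons, in percent of the genes past the filter, with labels as deposited. The WRKY share of lower genes exceeds the background most in tomato:tomato at 5 over 1 DAG (18.9% against 5.78%), and that of higher genes in pepper:tomato over tomato:pepper at 3 DAG (23.7% against 9.41%).

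Between 1 and 5 DAG, 35 WRKY genes passed the filter in all 3 grafts. Of these, 8 lay above the tomato median in each graft and 9 below it in each, together 48.6%, against 46.3% of the 16969 tomato genes that passed. Solyc02g080890 was the single member 2-fold or more lower in all 3 grafts (-1.16 in pepper:tomato, -1.28 in tomato:pepper and -1.23 in tomato:tomato), which 1.52% of all tomato genes were, and no member was 2-fold or more higher in all, against 2.82%. The other genes below the median in each graft were both WRKY33 genes, Solyc06g068460, Solyc03g116890, Solyc08g008280, Solyc05g015850, Solyc01g079260 and Solyc05g053380. The genes above it in each were Solyc09g015770, Solyc02g072190, Solyc10g009550, Solyc06g070990, Solyc03g104810, Solyc07g065260, Solyc07g066220 and Solyc09g066010. Across genes, the change in pepper:tomato had a Pearson's r of 0.575 with that in tomato:tomato (n = 37), that in tomato:pepper one of 0.552 with tomato:tomato (n = 35), and the heterografts one of 0.115 with each other (n = 35). Over all tomato genes these were 0.618, 0.667 and 0.521. Genes are not independent replicates, both heterografts share 1 table and its scaling, and these values are descriptions without a test.

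**Figure D4:**
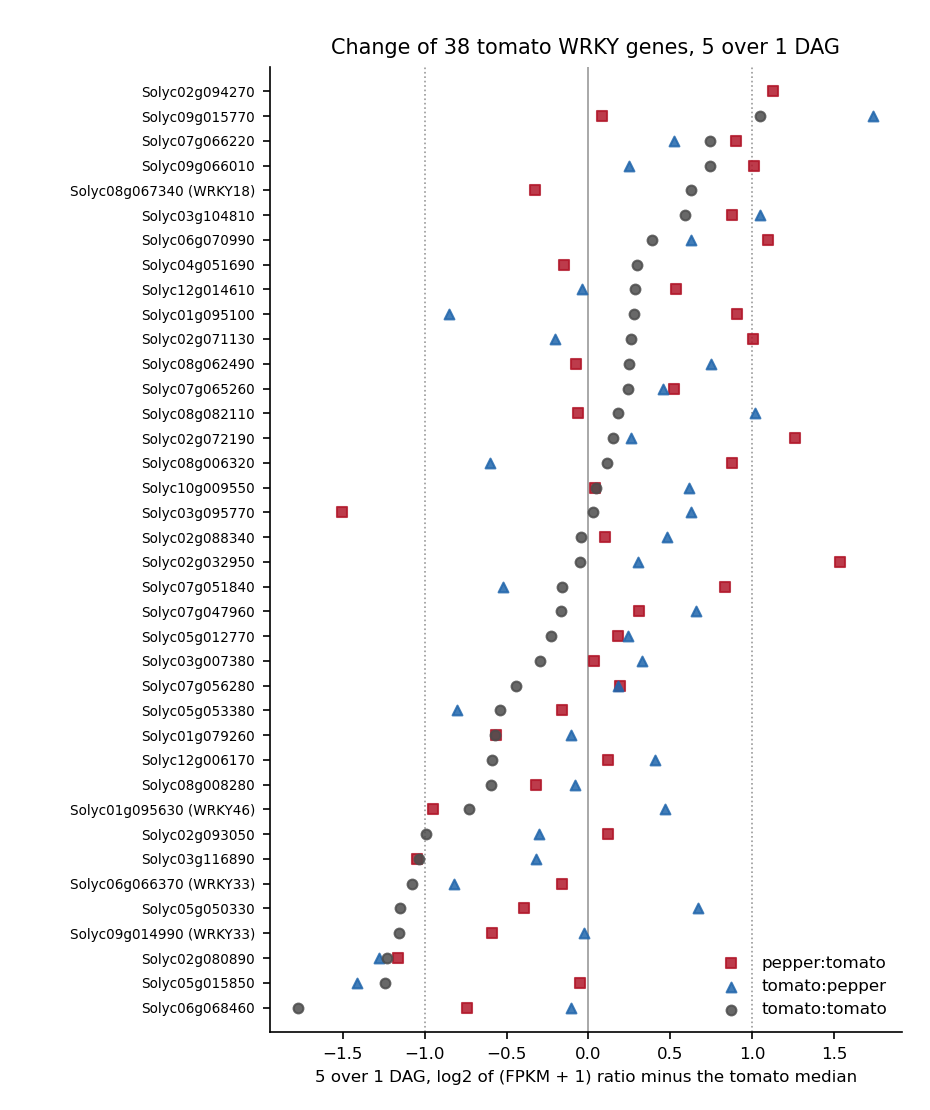
Change of the 38 WRKY genes that passed the filter in at least 1 graft between 1 and 5 DAG, as the log2 ratio of FPKM + 1 (5 over 1 DAG) minus the tomato median, in pepper:tomato (squares), tomato:pepper (triangles) and tomato:tomato (circles). Dotted lines mark 2-fold, genes are ordered by the self-graft value where there is one, and Solyc02g080890 is the single gene with all 3 symbols left of the lower line.

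At 3 over 1 DAG, the changes in pepper:tomato followed those of the self-graft (r = 0.708, n = 37, 27 genes on the same side of the median) and those in tomato:pepper did not (r = 0.027, n = 35, 14 on the same side). Between the heterografts r was -0.420, with 8 of 35 genes on the same side. Of all tomato genes, 73.8%, 49.7% and 34.3% lay on the same side in these pairs, so the 27 of 37 in pepper:tomato was near the share of all genes. Over all tomato genes r was 0.492, 0.233 and -0.432, so the negative value between the heterografts was found over all tomato genes as well. With the 3 DAG values exchanged, r was 0.821 for pepper:tomato with the self-graft (n = 33), 0.489 for tomato:pepper with the self-graft (n = 37) and 0.374 between the heterografts (n = 34), against 0.654, 0.408 and 0.247 over all tomato genes. As labelled, no member was 2-fold or more from the median in the same direction in all 3 grafts. Of all tomato genes, 0.913% were higher and 0.218% lower in all 3. With the exchange Solyc01g095100 alone of 33 members was higher in all 3 and none was lower, against 1.4% and 0.677% of all tomato genes. Counts this small say nothing particular to the family.

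**Figure D5:**
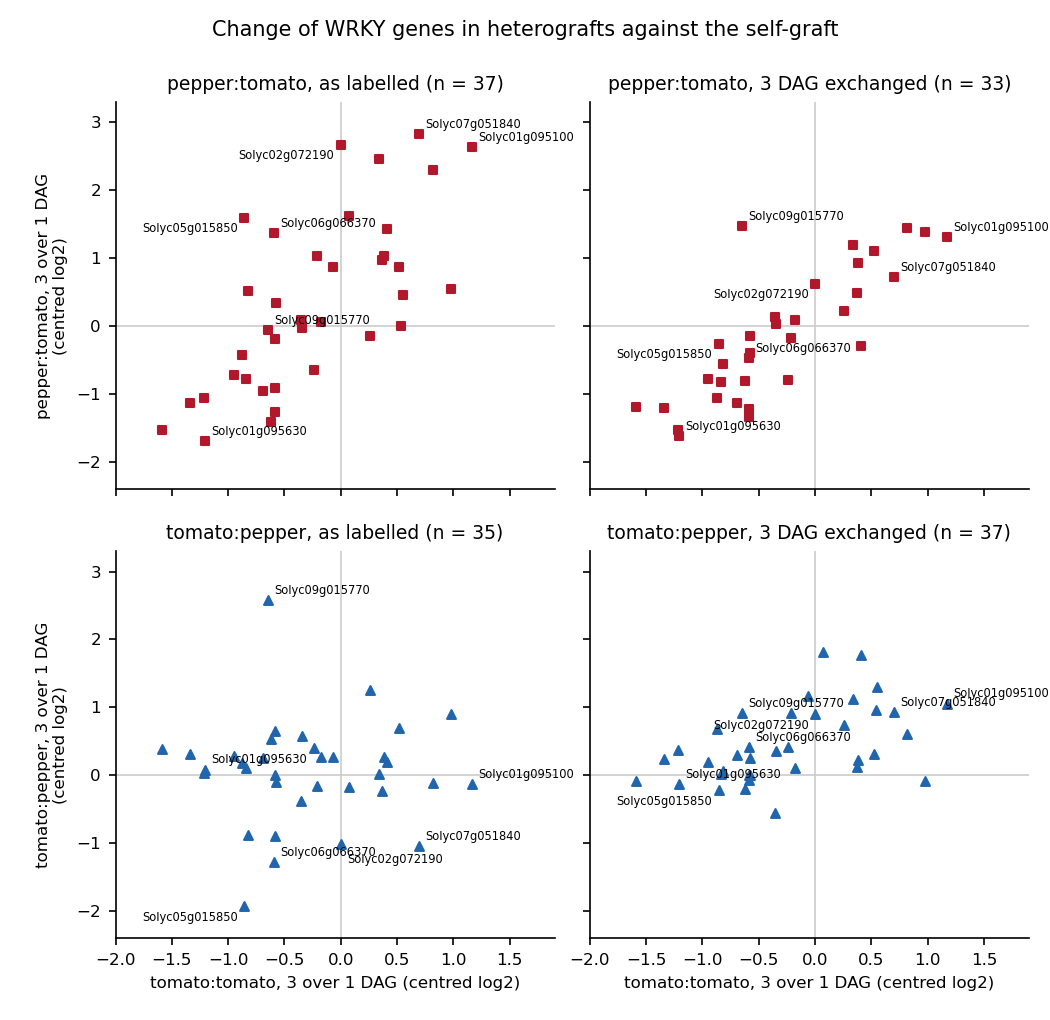
Change of WRKY genes between 1 and 3 DAG in pepper:tomato (top) and tomato:pepper (bottom) against that in tomato:tomato, as labelled (left) and with the 3 DAG heterograft values exchanged (right), each as log2 ratio of FPKM + 1 (3 over 1 DAG) minus the tomato median. As labelled, r is 0.708 (top) and 0.027 (bottom), and with the exchange 0.821 (top) and 0.489 (bottom).

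The heterografts were also compared with each other at each day, stock tissue of pepper:tomato against scion tissue of tomato:pepper. At 1 DAG the tomato shift was -0.91. Of the 20 WRKY genes at 5 FPKM or more in tomato:pepper, 3 (Solyc06g068460, WRKY46 and Solyc01g079260) had more FPKM in pepper:tomato. The share of all tomato genes for which this holds was not computed. Relative to the tomato shift, 6 of 38 WRKY genes were 2-fold or more lower in pepper:tomato, 15.8% against 17.1% of all tomato genes. They were Solyc07g051840 (1.59 FPKM in pepper:tomato and 17.0 in tomato:pepper, -1.88), Solyc05g015850 (8.90 and 63.7 FPKM, -1.79), Solyc02g072190 (0.845 and 10.7 FPKM, -1.76), Solyc08g006320 (23.2 and 144 FPKM, -1.67), Solyc01g095100 (2.37 and 17.7 FPKM, -1.56) and Solyc02g032950 (3.66 and 20.7 FPKM, -1.30). In the other direction, 10 genes were 2-fold or more higher, 26.3% against 15.9%, led by WRKY46 (14.3 FPKM in pepper:tomato and 8.61 in tomato:pepper, 1.58), Solyc03g116890 (1.47) and the WRKY33 gene Solyc09g014990 (1.45). Solyc06g068460 (11.4 and 7.92 FPKM, 1.39) and Solyc01g079260 (33.0 and 26.5 FPKM, 1.22) were the abundant ones among the rest. All others of the 10, Solyc03g116890 and Solyc09g014990 among them, were below 5 FPKM in both heterografts. A gene at 0 in both would stand at 0.91 in this comparison. With 5 FPKM added in place of 1, 1 gene was higher and 6 were lower (2.71% and 15.7% of all tomato genes). The median, with 1 FPKM added, was 0.33. Without subtracting the shift no gene was 2-fold or more higher and 14 were lower (3.09% and 46.4% of all tomato genes), with a median of -0.58. Rescaled to the tomato total 16 were higher and 2 lower (35.2% and 7.91% of all), so that the side of the family depended on the scaling.

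At 3 DAG as labelled, 9 of 38 genes were 2-fold or more higher in pepper:tomato than in tomato:pepper, 23.7% against 9.41% of all tomato genes, and 1 was lower, 2.63% against 14.6%, over a tomato shift of 0.40 and with a median of 0.08. The higher genes were Solyc08g082110 (7.72 FPKM in pepper:tomato and 0.619 in tomato:pepper, 2.03), Solyc07g051840 (30.4 and 4.94 FPKM, 2.00), Solyc02g072190 (19.0 and 2.96 FPKM, 1.93), Solyc05g015850 (50.0 and 10.5 FPKM, 1.74), the WRKY33 gene Solyc06g066370 (50.3 and 10.7 FPKM, 1.72), Solyc06g070990 (1.61), Solyc01g095100 (1.21), Solyc02g032950 (1.14) and Solyc08g008280 (1.10). The lower gene was Solyc09g015770, at 3.44 FPKM in pepper:tomato and 9.41 FPKM in tomato:pepper (-1.63). With the 3 DAG values exchanged the signs turn round by construction, giving 1 higher and 9 lower. Of the 6 genes lower in pepper:tomato at 1 DAG, 5 were among the 9 higher at 3 DAG. This overlap was not computed over all tomato genes, whose changes at 3 over 1 DAG had r of -0.432 between the heterografts as labelled. On the deposited scale 13 genes were higher and 1 lower (18.8% and 9.79% of all tomato genes), and rescaled to the tomato total 6 were higher and 2 lower (7.23% and 18.7% of all).

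The fewest genes were 2-fold apart between the heterografts at 5 DAG, among all tomato genes as well. Over a tomato shift of -0.55, the median was 0.07, with 2 of 38 genes 2-fold or more higher in pepper:tomato (5.26%, against 7.16% of all tomato genes) and 1 lower (2.63%, against 6.67%). The higher genes were Solyc02g093050 (19.9 FPKM in pepper:tomato and 12 FPKM in tomato:pepper, 1.23) and Solyc02g094270 (2.30 and 0.477 FPKM, 1.71), and the lower gene was Solyc03g095770 (0.481 and 3.96 FPKM, -1.19). As deposited, 1 gene was higher and 5 were lower (2.33% and 22.7% of all tomato genes), and rescaled to the tomato total 10 were higher and 2 lower (13.6% and 5.55% of all).

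A list of 9 other tomato transcription factor genes that the study names was set beside the WRKY genes. The study links PTI5 to defence and wound responses, but its text states no such role for STZ or MYB15. Grouping them as stress and wound genes was a choice made here. The 9 were the zinc finger genes STZ, the MYB15 genes and genes of the ethylene response factor family (among them PTI5 and RAP2.6L). Their median change at 3 over 1 DAG was 1.13 in pepper:tomato (5 of 9 higher, 3 lower), -1.26 in tomato:pepper (none of 8 higher, 5 lower) and -0.75 in tomato:tomato (none of 9 higher, 1 lower). Under the exchange it was 0.09 in pepper:tomato (1 higher, 1 lower) and -0.21 in tomato:pepper (1 higher, 1 lower). At 5 over 1 DAG it was -0.13 in pepper:tomato, -1.49 in tomato:pepper and -0.54 in tomato:tomato, with 1 of 9, 6 of 8 and 4 of 9 genes lower and none higher. Their summed FPKM was 91.1, 596 and 90.4 in pepper:tomato, 558, 201 and 170 FPKM in tomato:pepper, and 373, 372 and 193 in tomato:tomato. As labelled, the vascular markers lay on the other side in each graft. Their median at 3 over 1 DAG was -1.95 in pepper:tomato (5 of 6 lower, none higher), 1.61 in tomato:pepper (5 of 5 higher) and 0.14 in tomato:tomato (none of 4 past 2-fold). Of all tomato genes, 19.8% were lower in pepper:tomato and 11.6% higher in tomato:pepper. In pepper:tomato, the VND6 gene Solyc06g034340 (0.472 FPKM at 1 DAG and 0.032 at 3 DAG) and the VND7 gene Solyc06g065410 (0.940 and 0.184 FPKM) were below 1 FPKM on both days. A gene at 0 on both days would stand at -0.77 there. With the exchange the median of the vascular markers was -0.01 in pepper:tomato (1 of 6 higher, 1 lower) and -0.95 in tomato:pepper (none of 4 higher, 2 lower). The part of tissue composition in the WRKY values was not tested.

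The pepper side of the same heterografts was followed in 4 pepper WRKY genes that the study names. Relative to the median of pepper genes, WRKY33 (CA06g13580) was at -1.45 in pepper:tomato, 0.43 in tomato:pepper and -0.84 in the pepper:pepper self-graft at 3 over 1 DAG. Its FPKM was 136, 26.8 and 82.2 at 1, 3 and 5 DAG in pepper:tomato, 34.4, 74.5 and 18.3 FPKM in tomato:pepper, and 178, 101 and 106 in pepper:pepper. The WRKY33 genes CA09g11940 and CA09g11950 were at -1.74 and -1.32 in pepper:tomato and at 0.61 and 1.05 in tomato:pepper between these days. After the exchange, CA06g13580, CA09g11940 and CA09g11950 were at -0.37, -0.21 and 0.43 in pepper:tomato and at -0.64, -0.91 and -0.68 in tomato:pepper. Pepper WRKY46 (CA08g08240) was lower at 3 DAG in all 3 grafts, at -2.10 in pepper:tomato, -1.10 in tomato:pepper and -1.78 in pepper:pepper, and with the exchange it was at -1.98 in pepper:tomato and -1.21 in tomato:pepper. Tomato WRKY46 was at -1.70 in pepper:tomato, 0.08 in tomato:pepper and -1.20 in tomato:tomato.

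The remaining members were low or moved little. Solyc10g007970 was listed at 0 in 7 of the 9 groups and reached at most 0.067 FPKM, and Solyc10g084380 reached at most 0.713 FPKM, so that both failed the filter in all grafts, as Solyc08g067360 did. Solyc02g094270 failed it in tomato:pepper (at most 0.845 FPKM) and tomato:tomato (at most 0.796 FPKM) and reached 2.30 FPKM in pepper:tomato at 5 DAG. Solyc04g051690 and the WRKY18 gene Solyc08g067340 failed it in tomato:pepper, at most at 0.505 and 0.969 FPKM. In all 9 comparisons between days, 9 genes that passed the filter in every graft stayed within 2-fold of the tomato median as labelled. They were Solyc07g066220, Solyc02g093050, Solyc12g014610, Solyc07g065260, Solyc05g012770, Solyc07g047960, Solyc10g009550, Solyc05g053380 and Solyc03g007380. Of these, 6 did so with 3 DAG exchanged as well, and Solyc07g066220 (1.11 in pepper:tomato at 3 over 1 DAG), Solyc07g047960 (1.10 in pepper:tomato at 5 over 3 DAG) and Solyc03g007380 (1.16 in tomato:pepper at 3 over 1 DAG) were higher. Of these 9 genes, Solyc12g014610 had 4.74, 18.2 and 7.86 FPKM in pepper:tomato, 18.2, 10.1 and 14.6 FPKM in tomato:pepper, and 18.6, 25.4 and 22.8 FPKM in tomato:tomato. Solyc02g093050 had 17.1, 17.0 and 19.9 FPKM in pepper:tomato, 18.3, 13.1 and 12 FPKM in tomato:pepper, and 51.6, 29.7 and 25.4 FPKM in tomato:tomato.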

How the data were processed

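Polyadenylated RNA of 48 graft junction libraries was sequenced, 4 in each of 12 groups. The authors trimmed, aligned and quantified reads in TuxNet at default settings (fastq-mcf, hisat2 and Cufflinks) against the tomato genome, the pepper genome or, for heterografts, both joined, and deposited FPKM with 1 value per group. Tool versions are not given in the sources used here. The tables hold no counts, so depth is unknown and its effect on each value cannot be given. The tables were normalized separately, and no fold was taken across them. The deposited log2 fold change and q-value columns hold the authors' own comparisons and were not used. Samples were grouped by their treatment label. For self-grafted tomato the organism is given as Capsicum annuum, against the titles, and was not used.

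Log2 ratios of FPKM + 1 were taken for genes that reached 1 FPKM in any group of the graft (of either heterograft, where these were compared), and the median over tomato genes was subtracted. With 1 value per group no test was run. The added constant (0.1 or 5 FPKM), the filter (none or 5 FPKM), the scaling (not centred, or tomato FPKM rescaled to 1000000) and the labels at 3 DAG were varied. Genes named were the 5 with a name in the study, the 5 with the highest mean FPKM per graft, up to 3 per comparison and direction past 2-fold and at 5 FPKM or more in the higher group, and all that failed the filter. Other genes past 2-fold were named after their values were seen. The members and the stress, vascular and pepper lists were chosen with earlier results of these data known. The calculation was tested on simulated data. Python 3.11.15, pandas 2.3.3, numpy 2.4.6 and matplotlib 3.10.9 were used.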

Additional observations from a re-analysis of the deposited data

Results flagged for a closer look

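For 5 WRKY genes, the heterografts lay 2-fold or more on opposite sides of the tomato median in the same comparison between days, as labelled. The share of all tomato genes with such opposite calls was not computed. At 3 over 1 DAG, 8 of 35 WRKY genes and 34.3% of all tomato genes lay on the same side in both heterografts. At 5 over 3 DAG these were 11 of 35 and 50.2%, so the opposition is not particular to the WRKY genes. The difference between the heterografts was not tested, since each rests on 1 value per group. At 3 over 1 DAG, Solyc07g051840 was at 2.83 in pepper:tomato and -1.04 in tomato:pepper, a difference of 3.87. Solyc02g072190 was at 2.67 and -1.01, a difference of 3.68, and Solyc05g015850 at 1.60 and -1.93, a difference of 3.53. The WRKY33 gene Solyc06g066370 was at 1.36 in pepper:tomato and -1.28 in tomato:pepper, a difference of 2.64. At 5 over 3 DAG, Solyc08g082110 was at -1.68 in pepper:tomato and 1.23 in tomato:pepper, a difference of -2.91, and Solyc02g072190 at -1.41 and 1.30, a difference of -2.71. All of these use the 3 DAG values of the heterografts. With those values exchanged, Solyc06g066370 at 3 over 1 DAG was at -0.47 in pepper:tomato and at 0.42 in tomato:pepper, and the other 3 genes lay on 1 side of the median in both heterografts: Solyc07g051840 at 0.72 and 0.93, Solyc02g072190 at 0.63 and 0.90, and Solyc05g015850 at -0.26 and -0.22. At 5 over 3 DAG, Solyc02g072190 was then at 0.62 in pepper:tomato and at -0.65 in tomato:pepper, while Solyc08g082110, which failed the filter in pepper:tomato, at -0.82 in tomato:pepper.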

How the results depend on the processing

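No paired analysis was possible because the tables hold 1 value per group and no replicate number, and for the same reason no library could be left out. Depth is unknown. The 84 single gene values named were each set against up to 7 alternatives, which gave 518 pairings of a value with a setting. Of these pairings, 429 moved by less than 1.5-fold, 78 moved by more, and 11 stood 2-fold or more from the median and changed sign. All 11 came with 3 DAG exchanged, which covered 32 values, 22 of them 2-fold or more from the median. Values within 2-fold changed sign in 27 cases under the other settings and in 5 more with the exchange. The 11 were Solyc06g066370 in pepper:tomato (-0.47 at 3 over 1 DAG, 0.30 at 5 over 3 DAG) and in tomato:pepper (0.42 at 3 over 1 DAG), Solyc07g051840 in pepper:tomato (0.10 at 5 over 3 DAG) and in tomato:pepper (0.93 at 3 over 1 DAG), Solyc02g072190 in tomato:pepper (-0.65 at 5 over 3 DAG), and, for pepper:tomato over tomato:pepper at 3 DAG, Solyc02g072190 (-1.93), Solyc06g066370 (-1.72), Solyc07g051840 (-2.0), Solyc08g082110 (-2.03) and Solyc09g015770 (1.63). Counts that moved by more than 1.5 times are given by setting. The shares of all tomato genes moved with the setting too, so these counts alone say nothing particular to the family. For pepper:tomato at 3 over 1 DAG, 25.1% of all tomato genes were higher and 25.7% lower with 0.1 FPKM added. These shares were 18.4% and 5.41% with 5 FPKM added, 24.4% and 8.82% with no filter, and 20.2% and 21.7% with a filter of 5 FPKM. With 3 DAG exchanged, the genes higher and lower were 6 and 8 in pepper:tomato at 3 over 1 DAG, 4 and 1 at 5 over 3 DAG, 7 and 0 in tomato:pepper at 3 over 1 DAG, 0 and 8 at 5 over 3 DAG, and 1 and 9 for pepper:tomato over tomato:pepper at 3 DAG. Not centred, they were 18 and 0 in pepper:tomato at 3 over 1 DAG (median 0.84), 0 and 17 at 5 over 3 DAG (median -0.77), 1 and 6 in tomato:pepper at 3 over 1 DAG, 1 and 5 at 5 over 1 DAG, 2 and 4 in tomato:tomato at 3 over 1 DAG, and for pepper:tomato over tomato:pepper 0 and 14 at 1 DAG (median -0.58) and 1 and 5 at 5 DAG. Rescaled to the tomato total, they were 7 and 15 in pepper:tomato at 3 over 1 DAG, 14 and 3 at 5 over 3 DAG (median 0.54), 4 and 5 at 5 over 1 DAG, 3 and 1 in tomato:pepper at 5 over 1 DAG, 0 and 15, 3 and 0, and 0 and 8 in tomato:tomato at 3 over 1, 5 over 3 and 5 over 1 DAG, and 16 and 2, 6 and 2, and 10 and 2 for pepper:tomato over tomato:pepper at 1, 3 and 5 DAG. With 0.1 FPKM added, they were 7 and 12 in pepper:tomato at 5 over 3 DAG, 8 and 5 at 5 over 1 DAG, 4 and 5, 2 and 0, and 2 and 8 in tomato:tomato at 3 over 1, 5 over 3 and 5 over 1 DAG, and 16 and 7, 11 and 3, and 6 and 4 for pepper:tomato over tomato:pepper at 1, 3 and 5 DAG. With 5 FPKM added, they were 8 and 1, 0 and 6, and 1 and 0 in pepper:tomato, 1 and 2, 0 and 0, and 0 and 2 in tomato:pepper, 1 and 1, 1 and 0, and 0 and 3 in tomato:tomato (each at 3 over 1, 5 over 3 and 5 over 1 DAG), and 1 and 6, 6 and 0, and 0 and 0 for pepper:tomato over tomato:pepper at 1, 3 and 5 DAG. With no filter beyond a value above 0, they were 14 and 3 in pepper:tomato at 3 over 1 DAG, 1 and 13 at 5 over 3 DAG, 1 and 3 in tomato:pepper at 5 over 1 DAG, 2 and 4 in tomato:tomato at 3 over 1 DAG, and 4 and 11 at 1 DAG and 1 and 3 at 5 DAG for pepper:tomato over tomato:pepper. With a filter of 5 FPKM, they were 7 and 4 in pepper:tomato at 3 over 1 DAG, 4 and 5 at 5 over 3 DAG, 3 and 2 at 5 over 1 DAG, 2 and 2 in tomato:pepper at 3 over 1 DAG, 2 and 0 in tomato:tomato at 5 over 3 DAG, and 5 and 5, 7 and 2, and 2 and 0 for pepper:tomato over tomato:pepper at 1, 3 and 5 DAG, with fewer genes tested. The cause of the other moves was not tested.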
